A study of Mus musculus with 16 samples.

Results

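Transcripts of 28 genes of cholesterol synthesis and its control were followed in the livers of mice fed a high-fat diet. The genes were taken by symbol: 4 regulators, 8 enzymes from acetyl-CoA to the isoprenoids, 3 enzymes that make squalene and lanosterol, 9 that turn lanosterol into cholesterol, and 4 genes of sterol transport, esterification and lipoprotein receptor turnover. Each of the 28 symbols matched among the 55487 rows of the deposited table, and all 28 were among the 13905 genes tested. The 16 libraries fall into 3 groups: 5 named GFP, which are the controls, 5 named Cre and 6 named Flpo. All are C57/Bl6J mice whose genotype label reads J1 J2 lf/lf, and the series text names the model as hepatocyte-specific, with Cre standing for the 7a and Flpo for the 7b spliceoforms of JNK, a stress-activated kinase. How GFP, Cre and Flpo were delivered, and the age, sex and feeding time of the mice, were not given in the sources used here. The design compares the livers of these JNK spliceoform groups with the controls and with each other.

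The libraries held between 27929393 and 36043322 estimated counts each. Hepatocyte markers summed to between 77475 and 113074 CPM (estimated counts scaled to a common library size with TMM factors), Kupffer cell and macrophage markers to between 136 and 353 CPM, and the adipocyte markers Adipoq, Lep and Plin1 were at or near 0 throughout. Stellate cell markers, 10 of 10 measured and none at 0, summed to 299 to 390.4 CPM in GFP, 187 to 339 in Cre and 323 to 435 in Flpo. In whole liver RNA, fewer cells of a type and less RNA per cell cannot be told apart. The deposited tables are by gene, so the labelled spliceoforms could not be checked in them. The libraries labelled Flpo replicate 4 and Flpo replicate 6 stood apart from the other 14 across the sterol genes, and the group differences of named genes that rest on them are given with and without both.

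Cells make cholesterol from acetyl-CoA through mevalonate, the isoprenoid diphosphates, squalene and lanosterol. The transcription factor SREBP2, encoded by Srebf2, sits in the membrane of the endoplasmic reticulum bound to its escort Scap, and the Insig proteins hold that complex there while sterol is plentiful. When sterol is scarce, Scap carries SREBP2 to the Golgi, proteases release its active part, and it switches on most enzymes of the pathway together with Srebf2 and Insig1. The liver form of Insig2 differs from Insig1 in that insulin lowers it and fasting raises it. The liver is a main site of this synthesis, and sterol synthesis there follows feeding and the time of day.

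Levels between genes were compared in the authors' TPM, which is scaled for gene length. Insig2 had the highest mean over the 16 libraries at 173 TPM, followed by the sterol desaturase gene Sc5d at 149.8, the farnesyl diphosphate synthase gene Fdps at 148, the sterol isomerase gene Ebp at 122 and Hmgcs1, which encodes the cytosolic HMG-CoA synthase, at 121. The first rank of Insig2 rests on Cre, where its mean was 251 TPM. In GFP it stood at 165, below Sc5d at 169. In Flpo it stood at 116, below Fdps at 150, Sc5d at 149 and Ebp at 124. At the other end stood the esterification gene Soat1 at 0.830 TPM, Lbr, a nuclear envelope protein with sterol reductase activity, at 2.40, Mylip, a ubiquitin ligase for lipoprotein receptors, at 2.70, and Ggps1, which makes geranylgeranyl diphosphate, at 3.10. Soat1 had the fewest counts, between 22.1 and 301 in a library.

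The genes of the set were spread widest within the Flpo group. Flpo 4 and Flpo 6 were the lowest 2 of all 16 libraries for 18 of the 28 genes, against 2.37% of all genes tested, and the lowest 2 of the 6 Flpo libraries for 20 of the 28, against 8.72% of all genes. This pair was singled out after the values were seen, so the counts are a description and carry no test. The 18 genes were Srebf2, Scap and Insig1 among the regulators, Hmgcs1, Mvk, Mvd, Idi1 and Fdps of the early steps, Sqle and Lss, then Cyp51, Tm7sf2, Msmo1, Nsdhl, Hsd17b7, Sc5d and Dhcr7 of the late steps, and the sterol carrier Stard4. Fdft1 and Ebp joined them within the Flpo group, and Pmvk, a mevalonate pathway kinase, was lowest in Flpo 4 at 7.92 CPM with Flpo 1 at 10.3 just below Flpo 6 at 10.4. The mean of the 28 genes, each centred on its own average on the log2 CPM scale, was -1.01 in Flpo 4 and -0.79 in Flpo 6. The other 4 Flpo libraries lay between -0.20 and 0.47, the GFP libraries between -0.085 and 0.24, and the Cre libraries between -0.19 and 0.46. Together the 28 genes took 0.128% of all counts in Flpo 4 and 0.136% in Flpo 6, and between 0.202% and 0.360% in the other 14 libraries.

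**Figure D1:**
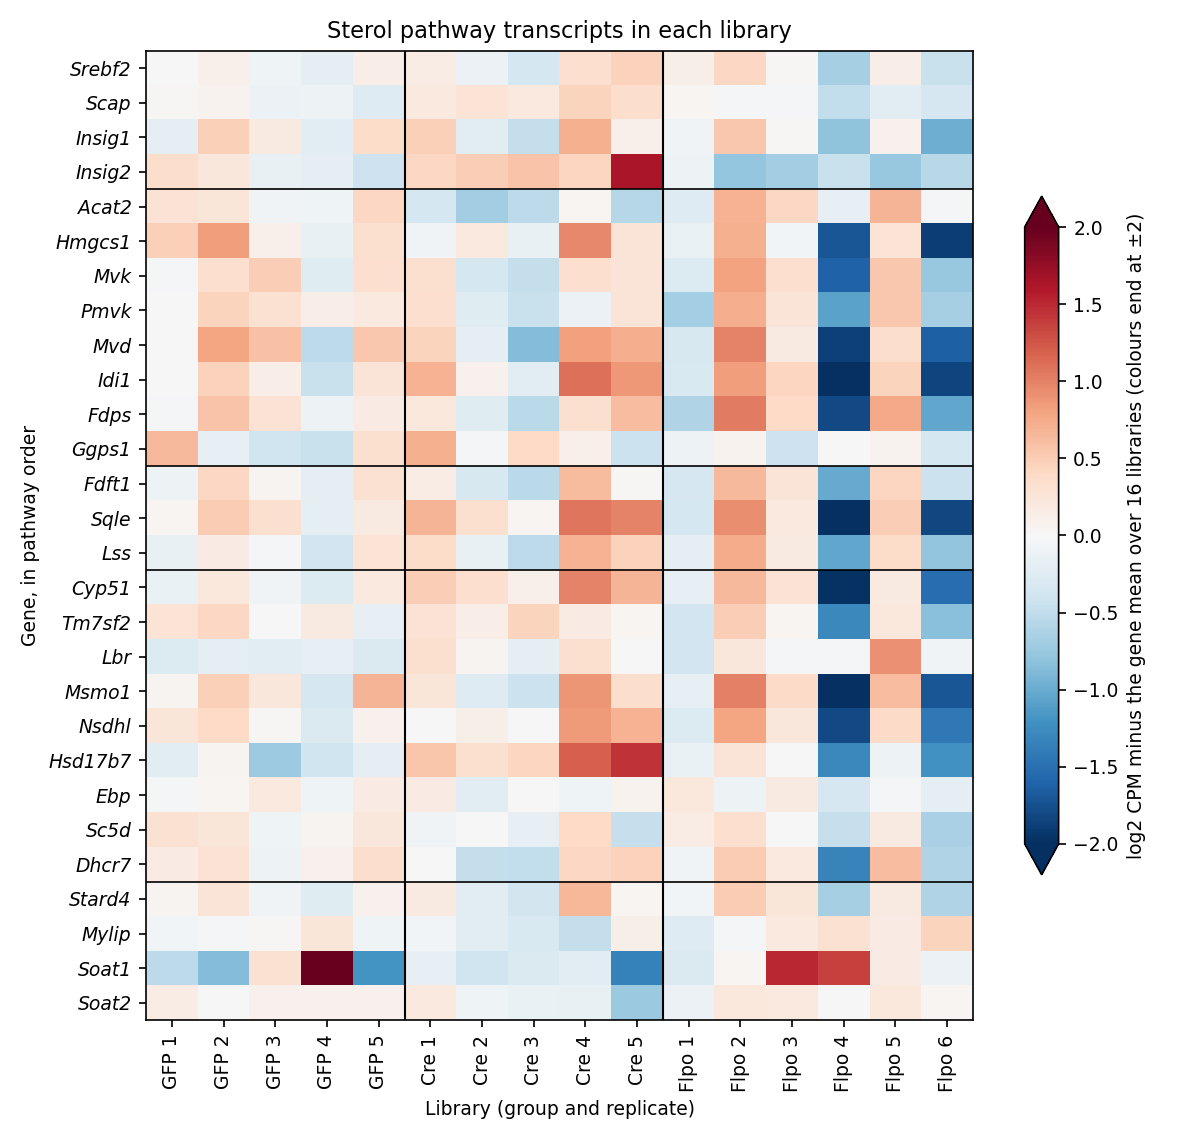
Log2 CPM of each gene minus its mean over the 16 libraries, with genes in pathway order on the vertical axis and libraries on the horizontal axis. The columns of Flpo 4 and Flpo 6 are low through most enzyme genes, and Ggps1, Lbr, Mylip, Soat1, Soat2, Insig2 and Acat2 do not share that column pattern.

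Sqle, which encodes squalene epoxidase, a control point of the sterol-committed part of the pathway, had the widest range, 22.8-fold between its lowest and highest library. It read 52.3, 72.6, 64.0, 45.4 and 57.8 CPM in GFP 1 to 5 and 82.4, 63.7, 52.6, 108 and 102 CPM in Cre 1 to 5. In Flpo the lowest value was 4.73 CPM, the median 49.6 and the highest 97.3. Flpo 4 held the 4.73 and Flpo 6 the next lowest, 14.4 CPM, while the other 4 Flpo libraries reached 40.3 to 97.3 and overlapped both other groups. The highest library exceeded the lowest by 20.5-fold in Flpo and by 1.60-fold in GFP.

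The early enzymes had the same shape. Idi1, the isopentenyl diphosphate isomerase, read 20.2 CPM in Flpo 4 and 32.4 in Flpo 6, with 93.6 to 205 in the rest of the group. Hmgcs1 read 391, 497, 299, 253 and 349.6 CPM in GFP and 265, 322, 253, 543 and 336 in Cre. Its Flpo libraries ran from 76.1 through a median of 263 to 456 CPM, with Flpo 6 at the bottom and Flpo 4 next at 84.9. Flpo 4 and Flpo 6 lay below every GFP and Cre library for Hmgcs1, and the other 4 Flpo libraries overlapped both groups. Mvd, the decarboxylase that makes isopentenyl diphosphate, read 3.43 and 4.05 CPM in Flpo 4 and Flpo 6 and 10.1 to 25.1 in the other 4.

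After lanosterol, Msmo1, a methyl sterol oxidase, read 34.5 CPM in Flpo 4 and 42.2 in Flpo 6, against 124 to 278 in the other Flpo libraries. The lanosterol demethylase gene Cyp51 read 25.6 and 35.2 CPM there, and the sterol dehydrogenase gene Nsdhl 8.57 and 11.2. Ebp moved less, at 118 and 131 CPM against 138 to 171 in the rest of the group. The range within Flpo was therefore uneven along the set: for Idi1 and Msmo1 the highest library stood 10.2-fold and 8.08-fold above the lowest, and for Ebp 1.45-fold.

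Regulators took part to different degrees. Srebf2 read 70.6, 76.1, 66.5, 61.6 and 77.0 CPM in GFP and 77.9, 64.8, 55.1, 89.4 and 96.9 in Cre. Its 6 Flpo libraries ran from 44.4 in Flpo 4, with 52.0 in Flpo 6, through a median of 74.1 to 94.4 CPM. Insig1, itself a transcript that SREBP2 switches on, read 126, 201, 163, 123 and 185 CPM in GFP and 199, 125, 103, 235 and 154 in Cre. In Flpo it ran from 73.2 in Flpo 6 and 82.4 in Flpo 4 through a median of 142 to 210.2 CPM. For both genes those libraries were the lowest of the 16, and the 3 groups otherwise overlapped.

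**Figure D2:**
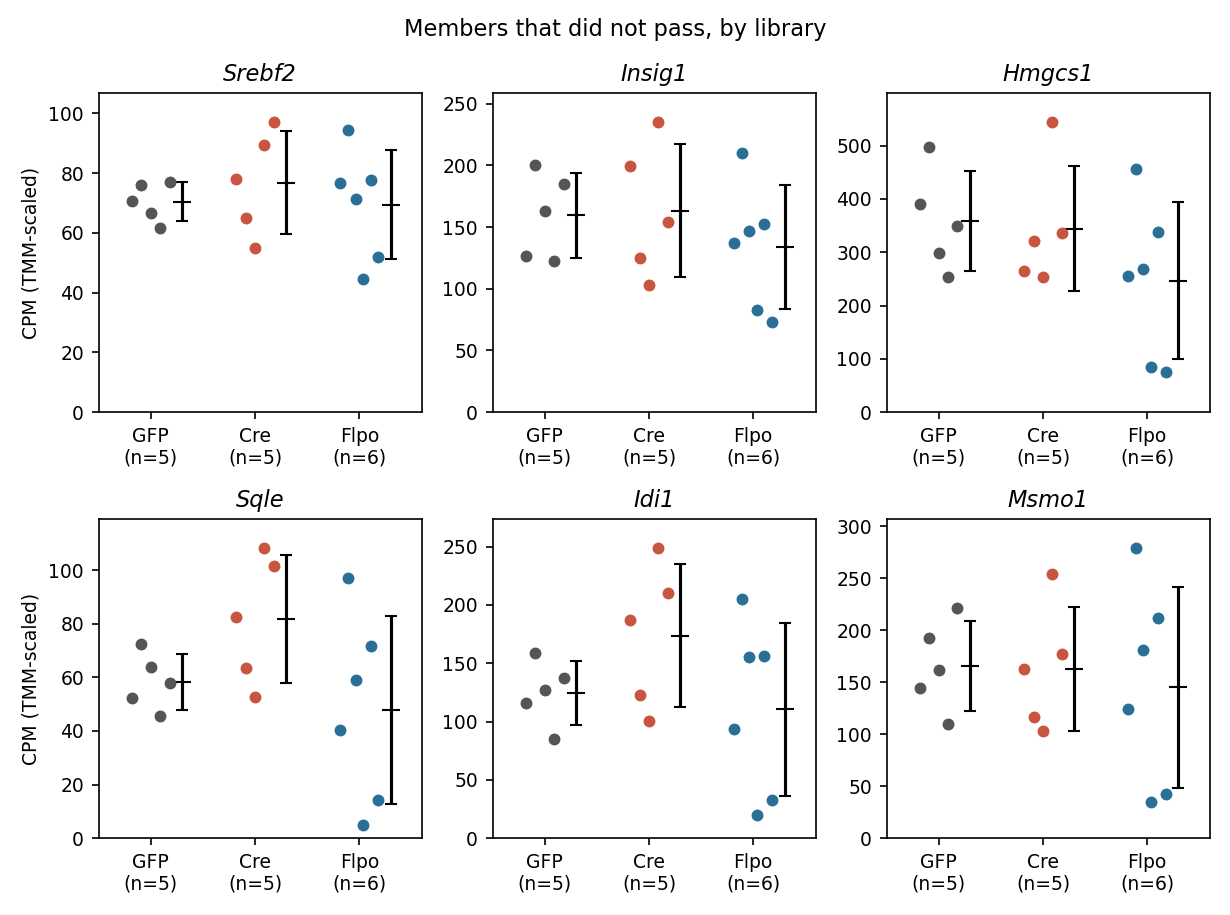
CPM of 6 genes that passed no test, each point a library, with a horizontal bar at each group mean and an error bar of 1 SD (GFP n = 5, Cre n = 5, Flpo n = 6). Sqle spans 4.73 to 97.3 CPM within Flpo, and its Flpo 4 and Flpo 6 points lie below all points of the other groups.

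Spread was measured for every gene as the SD of log2 CPM within a group. In GFP the median SD of the 28 genes was 0.257, beside 0.255 for all genes tested, and 15 of the 28 lay above that all-gene median. In Cre it was 0.42 beside 0.306, with 22 of 28 above. In Flpo it was 0.67 beside 0.246, with 24 of 28 above. The GFP libraries therefore varied in these genes about as much as in genes at large. The Cre libraries varied more in them than in genes at large, and so did the Flpo libraries, by a wider margin. The Flpo figure includes the low pair that was singled out after the values were seen, and no SD without that pair is given here.

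Several genes did not follow the pair. The esterification genes Soat1 and Soat2, Mylip, Ggps1, Lbr, Acat2 and Insig2 had Flpo 4 and Flpo 6 inside or above the range of the rest of the group. Mylip, which LXR and not SREBP2 switches on, read 8.11 CPM in Flpo 4 and 8.87 in Flpo 6, above the other 4 Flpo libraries at 5.46 to 7.46. Insig2 read 158 and 146 CPM in them, within the 125 to 199.99 of the others. A list of 11 measured genes of SREBP1 and fatty acid synthesis, a neighbouring branch of lipid synthesis, stood at 0.24 and 0.39 in Flpo 4 and Flpo 6 on the same centred scale. The other Flpo libraries ran from -0.035 to 0.47, so the pair lay within the range of its group. Fasn, the fatty acid synthase, read 115 and 132 CPM in them against 123 to 162 in the other Flpo libraries, and Thrsp, a lipogenic gene induced by feeding, read 309 and 385 CPM against 55.7 to 282. Within this list Acss2 and Me1 did follow the pair, and the other measured genes did not. Acss2 read 64.2 and 67.3 CPM in Flpo 4 and Flpo 6 against 75.7 to 104. Me1 read 146 and 129 CPM against 150 to 176.

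Other measures of the libraries are set beside this pattern. Flpo 4 and Flpo 6 held 30712579 and 28549613 counts, within the range of the other libraries, and 5.56% and 4.76% of their counts came from mitochondrial genes, against 3.73% to 5.47% in the other 14, so the share in Flpo 4 was the highest. A clock score was taken as the mean z score of 4 early-phase clock genes minus that of 7 genes of the opposite phase. Each z score is a gene's log2 CPM minus its mean over the 16 libraries, divided by its SD. The clock score is therefore not in log2 units. It was -1.21 and -0.83 in Flpo 4 and Flpo 6 and -2.22 to -0.65 in the other Flpo libraries. The score lay between -0.91 and 0.87 in GFP, and in Cre at -0.082 in Cre 4 and between 1.74 and 2.37 in the other 4. The part of feeding or harvest time in the spread was not tested.

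**Figure D3:**
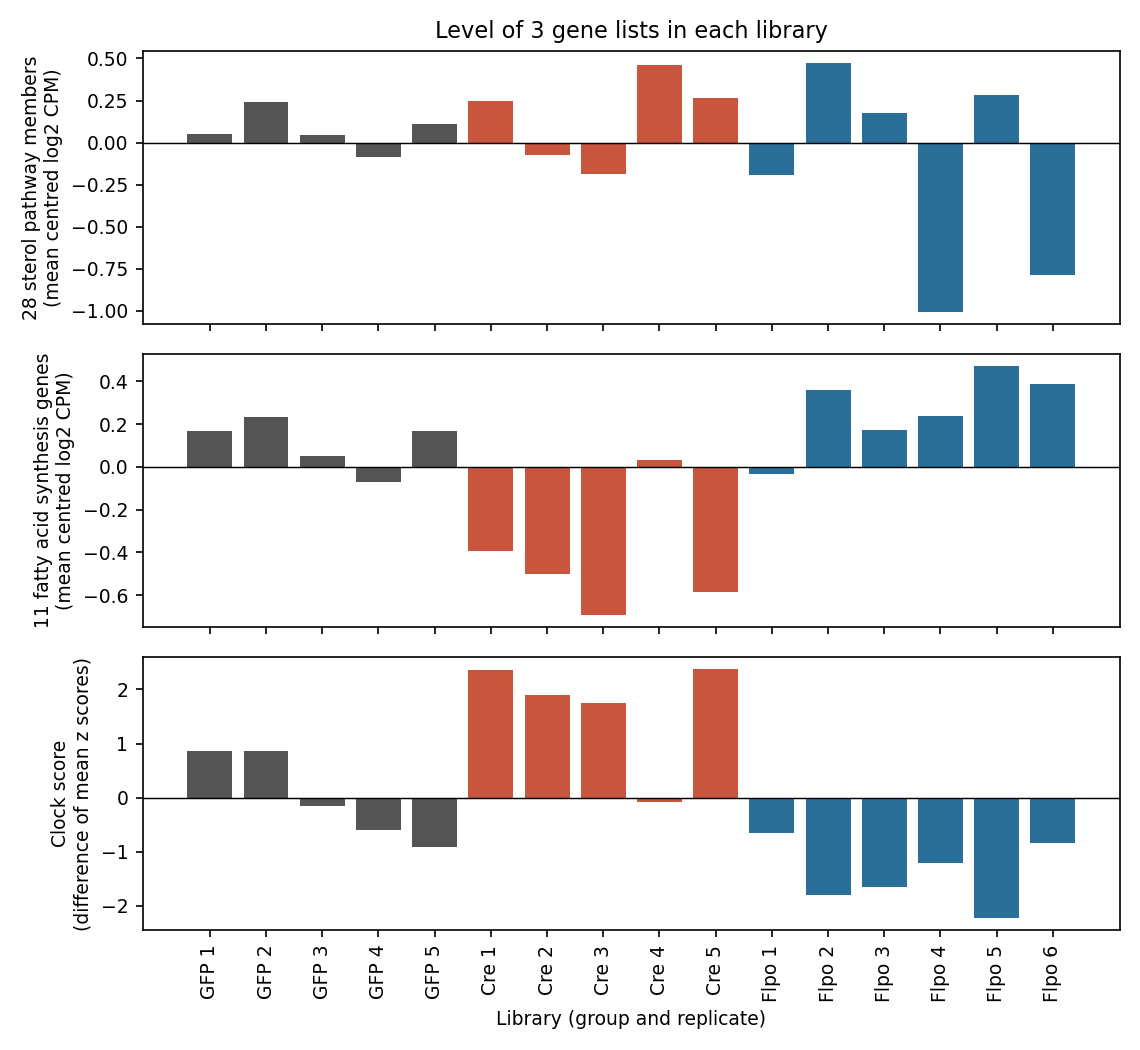
Mean centred log2 CPM of the 28 sterol genes, mean centred log2 CPM of the fatty acid synthesis list, and the clock score, as bars from 0 for each of the 16 libraries, coloured by group. Flpo 4 and Flpo 6 stand at -1.01 and -0.79 for the sterol genes. For the fatty acid synthesis list they stand above 0, as do Flpo 2, Flpo 3 and Flpo 5.

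The promoters of the set were also compared, whether or not a gene followed the pair. The 250 bases before each annotated start were searched on both strands in RefSeq promoters of GRCm38.p6, which held 23 of the 28 genes. The box CCAAT, bound by NF-Y, a partner of SREBP2 on sterol genes, was present in 21 of the 23 genes, or 91.3%, against 37.5% of 27025 genes in the same window. GGGCGG, bound by Sp1 and its relatives, was present in 20, or 87%, against 35.4%. CACGTG, an E-box that clock factors and SREBP1 can bind, was present in 5 genes (Dhcr7, Hsd17b7, Insig1, Sc5d and Scap), or 21.7%, against 6.86%. A sterol response element written TCACNCCAC was found in Hmgcs1 alone, or 4.35% of the 23, against 1.22% of all genes. The 27025 genes are all those with a promoter entry of this length, whether or not they were tested in liver. The promoters of the 13905 tested genes were not compared on their own. Matches to different motifs shared no base. A match describes letters in this window and is not a measured binding site.

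Stretches of 7 promoters are printed 5′ to 3′ on the strand of the gene, with exons of other transcripts left out. The CCAAT box, which reads ATTGG on the other strand, the E-box and the sterol response element are in capitals. Hmgcs1, Mvd and Insig1 are shown because they were low in Flpo 4 and Flpo 6, Mylip because it was not, and Insig2, Hsd17b7 and Scap because they passed the test between groups. Each name is followed by its GRCm38.p6 position and strand.
Hmgcs1, chr13:119690101-119690350 (+): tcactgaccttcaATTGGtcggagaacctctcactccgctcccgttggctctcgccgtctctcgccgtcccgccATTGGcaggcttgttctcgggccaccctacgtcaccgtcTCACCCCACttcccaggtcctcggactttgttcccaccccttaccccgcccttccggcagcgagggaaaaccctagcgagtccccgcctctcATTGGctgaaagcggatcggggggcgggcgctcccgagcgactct
Mvd, chr8:122443423-122443672 (-): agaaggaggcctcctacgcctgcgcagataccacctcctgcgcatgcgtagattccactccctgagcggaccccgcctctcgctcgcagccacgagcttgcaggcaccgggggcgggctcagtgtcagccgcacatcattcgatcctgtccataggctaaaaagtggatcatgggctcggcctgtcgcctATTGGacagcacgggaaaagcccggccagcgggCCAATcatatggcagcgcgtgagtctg
Insig1, chr5:28071162-28071362 (+): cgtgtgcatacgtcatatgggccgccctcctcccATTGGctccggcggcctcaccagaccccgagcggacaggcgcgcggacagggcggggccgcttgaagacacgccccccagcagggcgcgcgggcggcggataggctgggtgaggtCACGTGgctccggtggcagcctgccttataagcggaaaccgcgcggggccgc
Mylip, chr13:45389492-45389741 (+): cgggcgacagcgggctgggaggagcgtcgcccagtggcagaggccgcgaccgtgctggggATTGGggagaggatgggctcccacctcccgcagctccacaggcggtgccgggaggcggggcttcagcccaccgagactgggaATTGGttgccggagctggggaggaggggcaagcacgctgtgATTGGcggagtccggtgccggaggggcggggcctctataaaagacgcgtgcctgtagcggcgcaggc
Insig2, chr1:121332590-121332839 (-): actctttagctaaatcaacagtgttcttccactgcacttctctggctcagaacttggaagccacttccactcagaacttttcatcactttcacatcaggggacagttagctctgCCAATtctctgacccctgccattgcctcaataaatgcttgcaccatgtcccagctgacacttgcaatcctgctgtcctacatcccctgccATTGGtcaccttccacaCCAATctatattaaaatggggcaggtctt
Hsd17b7, chr1:169969242-169969408 (-): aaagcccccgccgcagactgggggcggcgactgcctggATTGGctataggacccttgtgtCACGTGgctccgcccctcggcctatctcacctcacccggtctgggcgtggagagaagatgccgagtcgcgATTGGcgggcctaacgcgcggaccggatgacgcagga
Scap, chr9:110333038-110333287 (+): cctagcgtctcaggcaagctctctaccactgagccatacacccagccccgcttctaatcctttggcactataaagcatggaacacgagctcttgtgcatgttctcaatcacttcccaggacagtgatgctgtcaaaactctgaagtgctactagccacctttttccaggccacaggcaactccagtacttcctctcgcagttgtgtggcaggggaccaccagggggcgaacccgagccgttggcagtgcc
Hmgcs1, Mvd, Insig1 and Mylip all carried CCAAT boxes. Hsd17b7 and Scap were also low in Flpo 4 and Flpo 6. Hsd17b7 carried the box, and Scap had none at either annotated start. With the box in 21 of the 23 genes, these few promoters cannot show whether it separates genes that followed the pair from genes that did not. Insig2 had 3 CCAAT boxes and Hsd17b7 an E-box and 2 CCAAT boxes in the stretches shown. The other annotated starts of Insig2 had no CCAAT box in the window. The Scap stretch held none of the motifs in capitals, and its E-box lay at a second annotated start.

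Between groups, few genes of the set passed. In Cre against GFP 3 of the 28 genes rose and none fell, a share of 10.7% that is near the 9.55% called among all genes tested (3.97% higher and 5.58% lower). They were Scap, Insig2 and Hsd17b7. In Flpo against Cre 4 of the 28 passed, or 14.3%, near the 13.7% of all genes (7.45% higher and 6.26% lower). There Acat2 was higher and Scap, Insig2 and Hsd17b7 were lower in Flpo. In Flpo against GFP no gene of the set passed with edgeR, DESeq2 or limma-voom, where edgeR called 0.0288% of all genes. There 1 gene, Insig2, had an unadjusted p under 0.05, and the smallest adjusted p was 0.44. The median log2 fold change of the 28 genes was 0.0034 in Cre against GFP (all genes 0.0014), -0.14 in Flpo against GFP (all genes -0.0055) and -0.16 in Flpo against Cre (all genes -0.0050). Without Flpo 4 and Flpo 6 the last 2 medians turned to 0.18 and 0.062 (all genes -0.0014 and -0.022). Beside the Cre calls, 4 of 10 stellate cell markers were lower in Cre than in GFP and 5 of 10 higher in Flpo than in Cre, and their part in these results was not tested. Cre libraries enter both comparisons in which genes passed, so those are not independent of each other. Genes whose libraries did not overlap between groups numbered 3 of 28 in Cre against GFP, or 10.7% beside 8.2% of all genes, 0 in Flpo against GFP beside 1.55%, and 3 in Flpo against Cre, or 10.7% beside 7.84%.

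**Figure D4:**
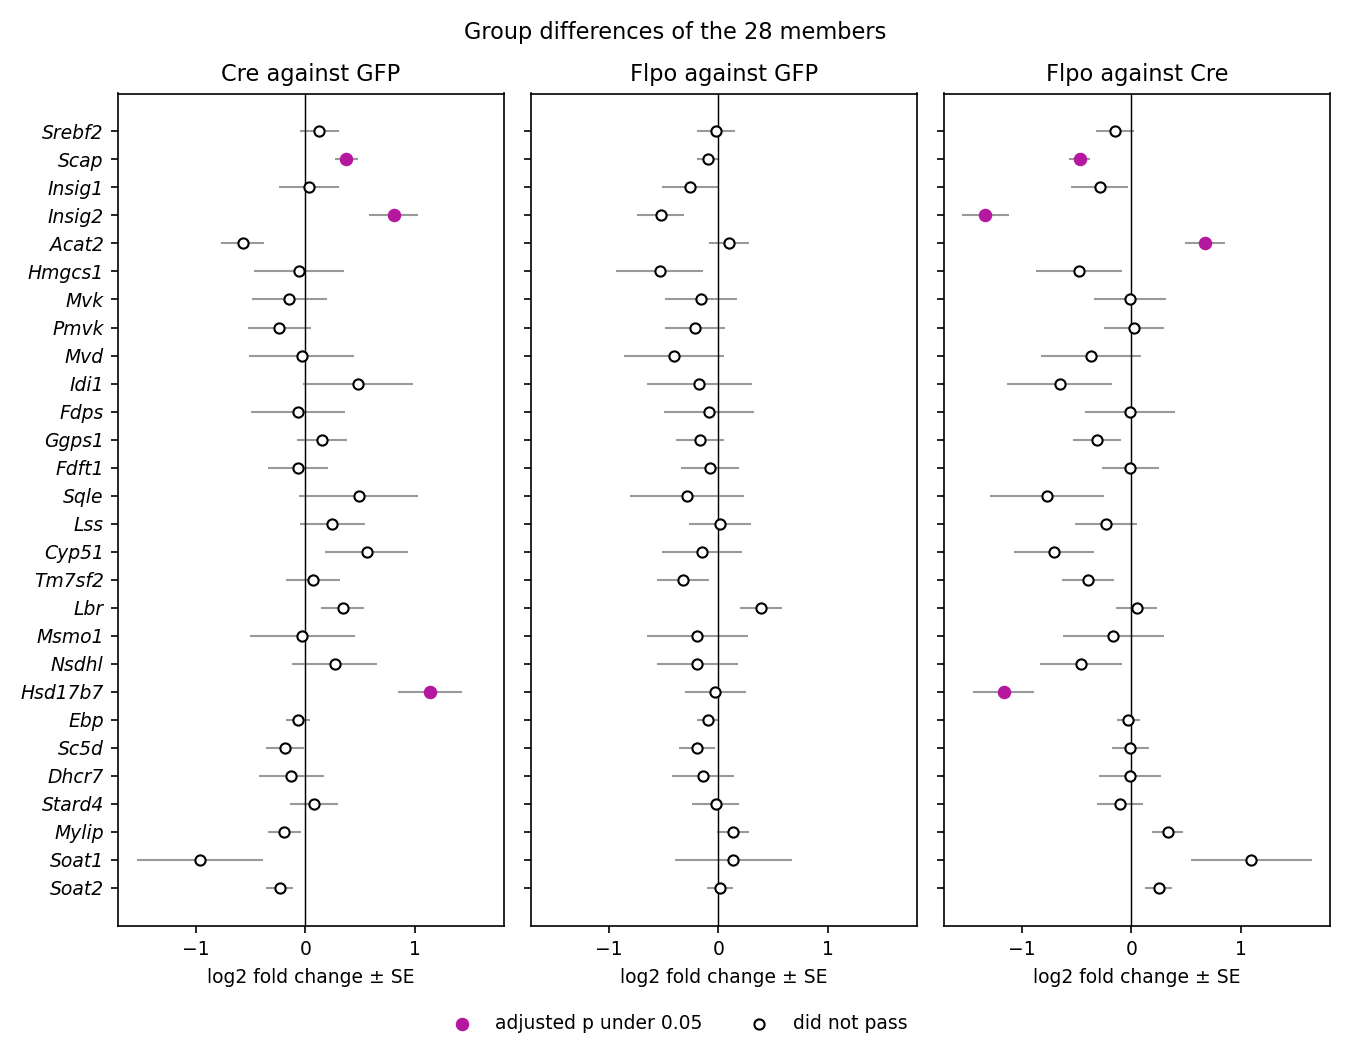
Log2 fold change of each of the 28 genes in the 3 comparisons, with error bars of 1 SE from the fit across all genes and genes past an adjusted p of 0.05 marked. The genes that pass are Scap, Insig2 and Hsd17b7, and in Flpo against Cre also Acat2.

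Insig2, which retains the Scap and SREBP complex, had the smallest p of the set in Flpo against Cre. It read 273, 250.2, 193, 189 and 161 CPM in GFP, and 285, 303, 319, 290.0 and 664 CPM in Cre. The Flpo libraries ran from 125 through a median of 139 to 199.99 CPM. Every Cre library lay above every GFP and every Flpo library, and Cre 5 lay far above the other 4. The group means were 213 ± 46.8 (SD, n = 5), 372 ± 164 (n = 5) and 148 ± 28.3 CPM (n = 6). In edgeR's quasi-likelihood test Insig2 was higher in Cre than in GFP, with a log2 fold change of 0.80 (SE 0.22, adjusted p = 0.032), and lower in Flpo than in Cre, with a log2 fold change of -1.33 (SE 0.21, adjusted p = 0.000675). Without Cre 5 the first difference was 0.49 with an adjusted p of 0.0577, and it also missed the threshold without GFP 3, GFP 4 or GFP 5 (adjusted p = 0.0676, 0.0653 and 0.0784). It missed it as well in a fit of the 2 groups alone (adjusted p = 0.0743) and with no low-count filter (adjusted p = 0.0799). The second passed whichever library was left out. Flpo against GFP gave -0.53 (SE 0.21, adjusted p = 0.44). Insig2 lies at chr1:121304353-121332589 on the minus strand of GRCm38 and shares no exonic base with another annotated gene.

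Scap, the escort of the SREBPs, differed by less and with a smaller spread. It read 119.5, 124, 109, 110.4 and 99.3 CPM in GFP and 136, 143, 136, 162 and 151 in Cre, and in Flpo it ran from 83.6 through 108 to 122 CPM. All Cre libraries lay above all others, and GFP and Flpo overlapped. Scap was higher in Cre than in GFP by 0.37 (log2, SE 0.10, adjusted p = 0.0268) and lower in Flpo than in Cre, at -0.47 (SE 0.096, adjusted p = 0.00322). Flpo 4 held the lowest Scap value, and without Flpo 4 and Flpo 6 the second difference was -0.38 with an adjusted p of 0.0187. The first difference missed the threshold without GFP 3, GFP 5 or Cre 4, with adjusted p of 0.0535, 0.0704 and 0.0512. Of the exonic bases of Scap, 13.2% are shared with 5830462I19Rik on the opposite strand, and whether the counting used strand is not given here.

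Hsd17b7 encodes a ketoreductase that acts while methyl groups are removed from the sterol ring. It read 60.9, 74.2, 42.8, 54.0 and 62.7 CPM in GFP and 104, 88.6, 96.1, 164 and 193 in Cre. Its Flpo libraries ran from 29.1 in Flpo 4, with 30.8 in Flpo 6, through a median of 65.5 to 85.0 CPM. The Cre libraries again stood above all others. Hsd17b7 was higher in Cre than in GFP by 1.13 (log2, SE 0.29, adjusted p = 0.0235), and lower in Flpo than in Cre, at -1.16 (SE 0.28, adjusted p = 0.0107). Without Flpo 4 and Flpo 6 the latter was -0.86 with an adjusted p of 0.0264. The rise in Cre missed the threshold without GFP 3, GFP 4 or Cre 5 (adjusted p = 0.0574, 0.0506 and 0.0641) and with no low-count filter (adjusted p = 0.0689). Hsd17b7 was the single late enzyme of 9 that passed, beside 9.55% of all genes in Cre against GFP and 13.7% in Flpo against Cre. Its neighbours in the pathway Nsdhl and Msmo1 stood at 0.27 (SE 0.39, adjusted p = 0.728) and -0.027 (SE 0.48, adjusted p = 0.982) in Cre against GFP. Cyp51, another late enzyme, stood there at 0.56 (SE 0.38, adjusted p = 0.407).

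Acat2, the cytosolic thiolase that joins 2 acetyl-CoA units at the head of the pathway, went the other way. It read 62.5, 60.5, 48.8, 48.1 and 68.2 CPM in GFP, 39.8, 31.6, 35.5, 52.4 and 34.3 in Cre, and from 42.5 through 58.9 to 82.3 in Flpo. Cre 4 overlapped both other groups, and the other 4 Cre libraries lay below them. Acat2 was higher in Flpo than in Cre by 0.67 (log2, SE 0.19, adjusted p = 0.0227) and stood at -0.57 in Cre against GFP (SE 0.19, adjusted p = 0.0699). The first call was lost without Cre 2, Cre 3, Cre 5, Flpo 2, Flpo 3 or Flpo 5, with adjusted p from 0.051 to 0.0619. The second comparison passed without Cre 4 (adjusted p = 0.0264), with DESeq2 (adjusted p = 0.0374) and in a fit of the 2 groups alone (adjusted p = 0.0399), so that the absence of falls in Cre depends on the fit. Acat3, a neighbouring copy with a higher mean count of 7774 beside 1624 for Acat2, was lower in Cre than in GFP, at -0.83 (adjusted p = 0.0114), and higher in Flpo than in Cre by 0.74 (adjusted p = 0.0126). Reads may be split between the copies, so Acat2 is uncertain.

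**Figure D5:**
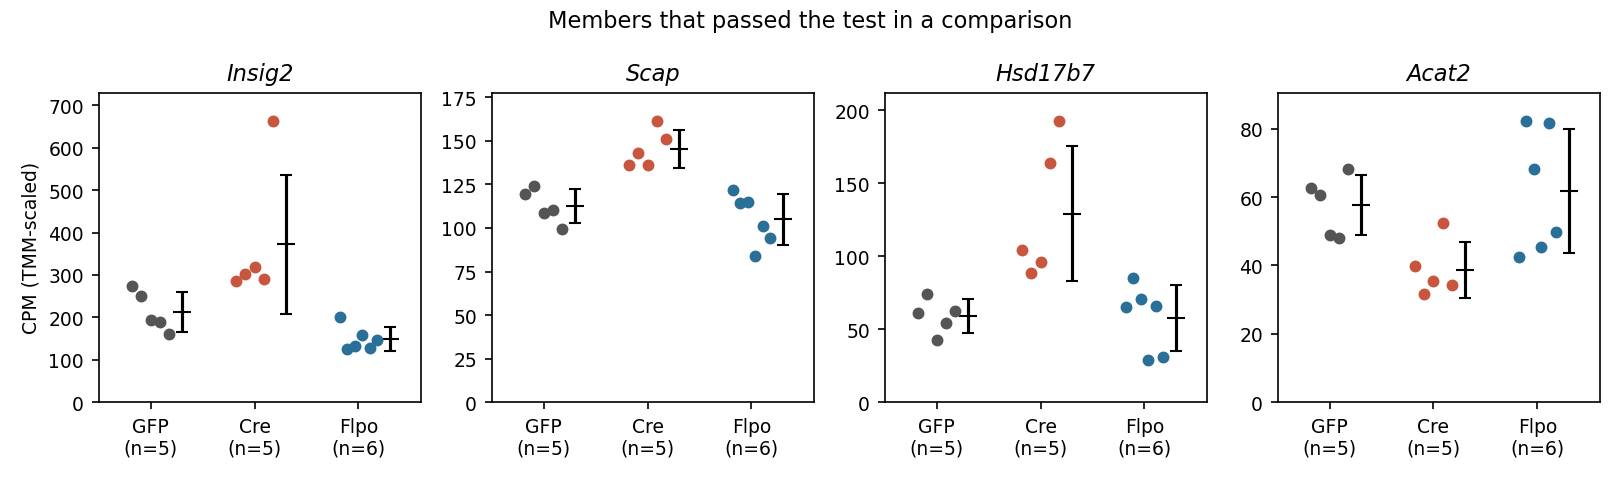
CPM of Insig2, Scap, Hsd17b7 and Acat2, each point a library, with a horizontal bar at each group mean and an error bar of 1 SD (GFP n = 5, Cre n = 5, Flpo n = 6). Cre points lie above all others for Insig2, Scap and Hsd17b7, and 4 of the 5 Cre points lie below all others for Acat2.

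The scaling and the clock score bear on these calls. With scaling by library totals alone, the median over all genes tested was -0.14 (log2) in Cre against GFP and 0.13 in Flpo against Cre, and on log2(TPM + 1) it stood at -0.12 and 0.14. Insig2 in Cre against GFP was 0.65 (adjusted p = 0.0615) with library totals and 0.56 (adjusted p = 0.109) on log2(TPM + 1), Scap 0.23 (adjusted p = 0.168) and 0.18 (adjusted p = 0.337), and Hsd17b7 0.99 (adjusted p = 0.0321) and 0.86 (adjusted p = 0.0546). Acat2 passed in that comparison under both, at -0.71 (adjusted p = 0.0219) and -0.74 (adjusted p = 0.02). In Flpo against Cre the 4 calls held with library totals, and on log2(TPM + 1) Scap missed the threshold at -0.26 (adjusted p = 0.119). Both settings also called Soat2 higher in Flpo than in Cre, by 0.38 (adjusted p = 0.049) and 0.45 (adjusted p = 0.0168), and log2(TPM + 1) called it lower in Cre than in GFP, at -0.42 (adjusted p = 0.0363). Both also called Mylip higher in Flpo than in Cre. With the clock score as a covariate, which overlaps with the groups, no gene of the set passed in any comparison, and calls among all genes fell to 176 in Cre against GFP and 9 in Flpo against Cre. With that covariate Insig2 stood at 0.29 (adjusted p = 0.634) and -0.37 (adjusted p = 0.948) in these comparisons Scap at 0.36 (adjusted p = 0.229) and -0.45 (adjusted p = 0.723), and Hsd17b7 at 1.29 (adjusted p = 0.124) and -1.48 (adjusted p = 0.639). Because the covariate overlaps with the groups, folds from this fit do not separate clock phase from group. The part of clock phase in the calls was not tested. Every Cre library, at -0.082 to 2.37, scored above every Flpo library, at -2.22 to -0.65. Clock phase and group therefore cannot be told apart in Flpo against Cre. Against GFP, at -0.91 to 0.87, the same holds for the Cre libraries other than Cre 4.

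The other 24 genes of the set passed in no comparison in edgeR's test with TMM scaling. Among the regulators, Srebf2 stood at 0.13 in Cre against GFP (SE 0.18, adjusted p = 0.724) and -0.020 in Flpo against GFP (SE 0.17, adjusted p = 0.981). Insig1 stood at 0.034 (SE 0.27, adjusted p = 0.959) and -0.26 (SE 0.26, adjusted p = 0.786). In Cre against GFP the first of these is -0.012 and the second -0.092 with library totals, so no direction is given for either. In Flpo against GFP, leaving out Flpo 4 and Flpo 6 turned Srebf2 to 0.19 and Insig1 to 0.021, and neither passed.

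Enzymes that differed most between libraries gave wide errors between groups. Sqle stood at 0.48 in Cre against GFP (SE 0.54, adjusted p = 0.639), at -0.29 in Flpo against GFP (SE 0.52, adjusted p = 0.887) and at -0.77 in Flpo against Cre (SE 0.52, adjusted p = 0.37). Without Flpo 4 and Flpo 6 the last 2 values were 0.20 and -0.30. Hmgcs1 stood at -0.057 (SE 0.41, adjusted p = 0.955), -0.54 (SE 0.39, adjusted p = 0.695) and -0.48 (SE 0.39, adjusted p = 0.473) in the same order, and at -0.11 in Flpo against GFP without the pair. Group differences of the size fitted here were not detectable with these errors.

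Lbr and Tm7sf2 encode sterol reductases that can act at the same step, and after Insig2 they had the smallest p of the set in Flpo against GFP. Lbr read 5.13, 5.46, 5.32, 5.51 and 5.06 CPM in GFP and 7.76, 6.39, 5.41, 7.76 and 6.16 in Cre, and from 4.75 through 5.999 to 11.7 in Flpo, where Flpo 5 held the highest value. It stood at 0.39 in Flpo against GFP (SE 0.19, adjusted p = 0.521). Tm7sf2 read 101, 112, 83.6, 94.3 and 74.5 CPM in GFP and 102, 91.3, 114, 94.1 and 85.5 in Cre, and from 34.3 in Flpo 4 through 74.9 to 118 in Flpo. It stood at -0.33 in Flpo against GFP (SE 0.24, adjusted p = 0.69) and at -0.39 in Flpo against Cre (SE 0.24, adjusted p = 0.307), and without Flpo 4 and Flpo 6 at -0.029 and -0.11. The groups overlapped for both genes.

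Soat1 and Soat2 esterify cholesterol for storage, the first in most cells and strongly in macrophages, the second in hepatocytes and intestine. Soat1 read 1.58, 1.23, 2.85, 9.81 and 0.972 CPM in GFP and 2.04, 1.72, 1.86, 1.95 and 0.863 in Cre, and from 1.87 through 2.48 to 6.70 in Flpo. GFP 4 held the highest value of all, and without it Cre against GFP moved from -0.96 (SE 0.57, adjusted p = 0.331) to 0.043. The Kupffer cell and macrophage markers, all 11 of them measured and none at 0, summed to 244 CPM in GFP 4 and to 143 to 253 in the GFP group, 136 to 225 in Cre and 138 to 353 in Flpo, and their part in the Soat1 values was not tested. Soat2 read 33.6, 30.2, 32.0, 32.1 and 32.1 CPM in GFP and 34.6, 28.4, 27.6, 27.2 and 17.97 in Cre, and from 27.98 through 32.8 to 35.1 in Flpo. Its Cre 5 value was the lowest of the 16, and it stood at -0.24 in Cre against GFP (SE 0.13, adjusted p = 0.27).

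Fdft1, which makes squalene, and Fdps also share exonic bases with other annotated genes, so their counts are uncertain. Of the exonic bases of Fdft1, 18.3% are shared with Ctsb, an abundant lysosomal protease gene on the opposite strand that was lower in Cre than in GFP at -0.47 (adjusted p = 0.0055), and 26.7% of those of Fdps with Gm43738 on the same strand. Neither Fdft1 (-0.066, adjusted p = 0.919) nor Fdps (-0.067, adjusted p = 0.948) passed in Cre against GFP. Overlaps of 12.1% were found for Hmgcs1 and Tm7sf2 and of 10.7% for Lbr.

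Around the pathway, 68 further genes in 6 lists were followed, of which 66 were tested. In Cre against GFP 7 of the 66 passed, 3 higher and 4 lower, and in Flpo against Cre 7 passed, 4 higher and 3 lower. That is 10.6% in each, near the 9.55% of all genes in the first and below the 13.7% in the second. In Flpo against GFP none passed with edgeR, DESeq2 or limma-voom, and 7 of the 66 had an unadjusted p under 0.05. No gene of the lists for LXR and sterol export (8 genes), intracellular cholesterol transport (13) and the isoprenoid branches to dolichol, ubiquinone and prenylation (14) passed with edgeR in any comparison. Of these 35 genes, 4, 5 and 6 had an unadjusted p under 0.05 in Cre against GFP, Flpo against GFP and Flpo against Cre, limma-voom called none, and DESeq2 called the transport genes Npc2 and Osbpl2 in the last.

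In the list of SREBP processing and sterol-regulated degradation, 2 of 14 genes rose in Cre against GFP, where 3.97% of all genes were called higher. Sec24d, a coat protein of vesicles that leave the endoplasmic reticulum, stood at 0.44 in Cre against GFP (SE 0.13, adjusted p = 0.0416) and -0.38 in Flpo against Cre (SE 0.12, adjusted p = 0.0495). Ufd1, a cofactor that helps extract ubiquitylated proteins from that membrane, stood at 0.37 (SE 0.093, adjusted p = 0.0184) and -0.38 (SE 0.089, adjusted p = 0.00756). The list's median was 0.14 in Cre against GFP, where the median of all genes was 0.0014.

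In oxysterol formation 1 of 6 tested genes rose and 1 fell in Cre against GFP, beside 3.97% of all genes higher and 5.58% lower. Cyp7b1, the oxysterol hydroxylase of the alternative bile acid route, read 79.5, 119.9, 128, 84.4 and 94.5 CPM in GFP and 465, 414, 715, 338 and 372 in Cre, and between 49.4 and 137 in Flpo. Every Cre library exceeded every other, at 2.19 against GFP (log2, SE 0.27, adjusted p = 0.000117), and Flpo against Cre was -2.47 (SE 0.25, adjusted p = 1.92e-05). Cyp46a1, a cholesterol hydroxylase best known from brain, read 5.13 to 10.8 CPM in GFP, 0.680 to 3.64 in Cre and 4.15 to 9.07 in Flpo, and went the other way at -1.87 (SE 0.34, adjusted p = 0.00245) in Cre against GFP and 1.97 (SE 0.33, adjusted p = 0.000889) in Flpo against Cre.

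In the fatty acid list 3 of 11 tested genes fell in Cre against GFP and were higher in Flpo than in Cre, beside 5.58% of all genes lower in the first and 7.45% higher in the second. Thrsp stood at -3.31 (SE 0.54, adjusted p = 0.00181) and 4.33 (SE 0.56, adjusted p = 0.000188), and the desaturase gene Scd1 at -1.77 (SE 0.48, adjusted p = 0.0299) and 1.71 (SE 0.46, adjusted p = 0.0237). Acss2, which makes acetyl-CoA from acetate, stood at -0.58 (SE 0.15, adjusted p = 0.0199) and 0.60 (SE 0.14, adjusted p = 0.00952). Srebf1 (-0.32, adjusted p = 0.478) and Fasn (-0.048, adjusted p = 0.936) did not pass in Cre against GFP. With the clock score as a covariate, Cyp7b1 in Cre against GFP was the 1 related gene that passed in any comparison.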

How the data were processed

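Liver RNA was extracted with an RNeasy kit and DNase I, and polyA libraries were sequenced as paired reads of 150 bases on a NovaSeq instrument, per the labels. The submitters' processing notes name cutadapt, STAR and the build mm10. The quantifier, annotation and strandedness were not given in the sources used here. The authors deposited estimated counts per gene, of which 31.7% were not whole, and the authors deposited TPM for the same libraries, a unit scaled for length.

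Groups and replicate numbers were taken from the titles. The labels do not tie each library to its own mouse, and p-values cover library-to-library spread, which may be technical. Title numbers run in blocks by group, so batch and group cannot be told apart.

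The test was edgeR 4.0.16 (R 4.3.3) on counts rounded to whole numbers. filterByExpr with a minimum count of 10 kept 13905 of 55487 rows. All 16 libraries entered 1 robust quasi-likelihood fit with TMM factors, and the 3 group contrasts were adjusted over all genes tested by Benjamini-Hochberg, with calls at an adjusted p under 0.05 and no minimum fold. Standard errors are the fold change over the root of F. Log2 CPM used a prior count of 2. The fit was tested on data simulated with set changes. Of changes of 0.5 (log2), 26.9%, 19.4% and 28.4% were called in Cre against GFP, Flpo against GFP and Flpo against Cre. Of changes of 1, 61.2%, 64.2% and 71.6% were called. False calls made up 6.84%, 7.2% and 3.2% of all calls in the same order.

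The 28 genes and the related lists were chosen with earlier results of these data known. Values by library (for Flpo the lowest, median and highest) are given for genes that passed, for the 3 with the smallest p in each comparison, and for Srebf2, Insig1, Insig2, Hmgcs1, Sqle, Soat1 and Soat2. Other genes named by value were chosen after their values were seen. Overlaps came from the GENCODE M21 annotation of GRCm38, and promoters from RefSeq (GRCm38.p6). Alternatives were library totals alone, DESeq2-type size factors, other low-count filters, DESeq2 1.42.0, limma-voom and limma on log2(TPM + 1) with limma 3.58.1, a replicate block, a fit of only the 2 groups compared, the clock score as a covariate, a stricter threshold of 0.01 and each library left out in turn. Leaving out Flpo 4 and Flpo 6 together was added after seeing the data.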

Additional observations from a re-analysis of the deposited data

Results flagged for a closer look

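In 84 groups of values (28 genes in 3 groups) 5 held a library far from the rest of its group, judged by its gap to the nearest library as a share of the group's range. Chance alone flags about 1 in 20 groups, a share near the one found. Many of the 28 genes moved together across libraries, so the 84 groups are not independent. The shares therefore do not show whether the flags are chance. Soat1 was 9.81 CPM in GFP 4, where the next library was at 2.85, and 0.863 CPM in Cre 5, where the nearest was at 1.72. Insig2 was 664 CPM in Cre 5, with the nearest at 319. Hmgcs1 was 543 CPM in Cre 4, with the nearest at 336. Lbr was 11.7 CPM in Flpo 5, with the nearest at 7.28. The low values of Flpo 4 and Flpo 6 do not appear here, because each has the other as its near neighbour.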

How the results depend on the processing

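Leaving out each library in turn gave 0 to 3 of the 28 genes in Cre against GFP (0 without GFP 3, and 1 without GFP 4, GFP 5 or Cre 5). It gave 3 to 4 in Flpo against Cre and 0 for Flpo against GFP. The shares called among all genes were 6.82% to 10.3%, 10.5% to 15.5% and 0% to 0.108% in the same order. Among the related genes, leaving out a library gave 4 to 9 in Cre against GFP, with 4 without GFP 1, GFP 2 or Cre 2. With no low-count filter 1 gene, Scap, passed in Cre against GFP, where 4.03% of all genes were called. With the clock score as a covariate 0 genes passed in Cre against GFP and 0 in Flpo against Cre, and of the related genes 1 and 0. At an adjusted p under 0.01 the counts were 0 and 2, and 3 related genes in Cre against GFP. In Flpo against Cre 11 related genes passed with library totals and 16 on log2(TPM + 1), where 16.3% and 20.1% of all genes were called. The mean level of the 28 genes in GFP 1 was 0.17 on log2(TPM + 1) and 0.048 on log2 CPM. Without Flpo 4 and Flpo 6 together, 3, 0 and 4 of the 28 genes passed, the same genes, beside 8.06%, 0% and 7.37% of all genes.

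Directions turned for differences that passed no test. In Cre against GFP, library totals gave Srebf2 -0.012, Insig1 -0.092 and Tm7sf2 -0.082. There log2(TPM + 1) gave Srebf2 -0.077, Insig1 -0.18 and Tm7sf2 -0.11, voom gave Insig1 -0.0019, and the clock covariate gave Hmgcs1 0.29. In Flpo against Cre, voom gave Lbr -0.018, log2(TPM + 1) gave Srebf2 0.044, and the clock covariate gave Soat1 -0.42, Lbr -0.53 and Acat2 -0.039, the last a gene that passed there without the covariate. In Flpo against GFP the clock covariate gave Soat1 -0.45, Soat2 -0.063 and Acat2 -0.26. Without Flpo 4 and Flpo 6, Flpo against GFP gave Sqle 0.20, Srebf2 0.19, Insig1 0.021, Scap 0.0098 and Hsd17b7 0.28, and Flpo against Cre gave Srebf2 0.047. Leaving out 1 library turned these within the following ranges. In Cre against GFP they were Insig1 -0.13 to 0.17, Hmgcs1 -0.28 to 0.10, Soat1 -1.19 to 0.043 and Tm7sf2 -0.0016 to 0.15. In Flpo against GFP they were Srebf2 -0.13 to 0.082, Soat1 -0.14 to 1.12, Soat2 -0.015 to 0.049, Hsd17b7 -0.17 to 0.11 and Acat2 -0.0054 to 0.18, and in Flpo against Cre Lbr -0.18 to 0.12.

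Libraries with the same replicate number did not deviate together: the mean correlation over 15 pairs was 0.0067, from -0.156 to 0.117, and 3 of 15 libraries correlated best with their own number. With the replicate number as a block, and without Flpo 6, whose number no other library carries, 2, 0 and 3 of the 28 genes passed. Among all genes 7.36%, 0% and 9.76% were called there. The calls lost were Insig2 in Cre against GFP (adjusted p = 0.0798) and Acat2 in Flpo against Cre (adjusted p = 0.0656). That block gave Hmgcs1 0.021 in Cre against GFP, and Srebf2 0.037 and Hsd17b7 0.096 in Flpo against GFP.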
